A study of Danio rerio with 15 samples.

Results

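The exon junction complex is a small set of proteins that the spliceosome leaves on messenger RNA just upstream of points where exons were joined. Nonsense-mediated decay reads that mark. When a ribosome stops well before a remaining junction complex, the UPF and SMG proteins gather on the transcript and destroy it, which removes many wrongly spliced messages. Genes of both systems were followed here in kdrl-positive cells of zebrafish embryos with and without a mutation in sf3b1, the spliceosome subunit that holds the branch point of introns. The genes were chosen by symbol from a list of 10 names, of which 8 matched a row of the count table of 32105 genes, ignoring case. The rows were EIF4A3, CASC3, UPF3B, UPF1, SMG1, SMG9, SMG5 and SMG6. The names magoh and upf2 matched no symbol and were not analysed here. All 8 rows passed the filter on low counts, among 18020 genes tested in all.

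RNA with poly(A) tails was sequenced from cells sorted for kdrl, an endothelial receptor gene, at 28 hours after fertilization. The 15 libraries were of wildtype embryos, sf3b1 mutant embryos and their siblings, with 2 libraries of each genotype carrying wildtype Stat3 (WT-Stat3) and 3 carrying constitutively active Stat3 (CA-Stat3). Single libraries are named by genotype, construct and replicate, as in mutant WT-2. Every group overexpressed 1 of these forms of Stat3, a cytokine-activated transcription factor, so that the wildtype embryos were not untreated. The labels do not give the sf3b1 allele, the sibling genotypes, the promoter behind Stat3, the number of embryos pooled, or whether replicates came from separate clutches. The spread behind each p-value is thus that of these libraries and may be technical.

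Library totals ran from 3625121 to 8170371 counts, and mutant WT-2 was the shallowest, with 39.5% of its counts in the single row zgc:158463. SF3B1 itself, the check on the labels, had 82 to 108 CPM (counts scaled to a common library total, with TMM factors) in mutants, 157 to 172 in siblings and 170 to 208 in wildtypes. The sort was checked by 9 endothelial marker rows, whose summed level was 2614 to 4511 CPM in mutants, 1599 to 3735 in siblings and 2919 to 4563 in wildtypes. Of the 9 rows, 1 was called higher and 0 lower in mutants against wildtypes, and 4 higher and 0 lower against siblings. Over all genes tested, the shares called were 28.7% against wildtypes (13.9% higher, 14.8% lower) and 26.2% against siblings (12.4% higher, 13.9% lower). These shares also stand beside the counts of the marker lists that follow. The sorted gene kdrl was at 0.18 ± 0.19 against wildtypes and 0.48 ± 0.19 against siblings (log2, SE), without a call in either. The 12 macrophage and neutrophil rows summed to 118 to 512 CPM in mutants against 982 to 2547 in siblings and 1095 to 2337 in wildtypes, and all 12 fell against wildtypes and 11 of 12 against siblings. The 10 erythroid rows summed to 1116 to 2792 CPM in mutants, 669 to 2343 in siblings and 518 to 1231 in wildtypes, with 7 of 10 higher against wildtypes and 4 of 10 against siblings. Of other lists, 5 of 7 mesenchyme and notochord rows, 4 of 8 neural rows, 3 of 6 epidermal rows and 0 of 3 muscle rows fell against wildtypes, and 0 rose. Against siblings 5 of 7 mesenchyme and notochord rows, 7 of 8 neural rows, 0 of 6 epidermal rows and 2 of 3 muscle rows fell, and 0 rose. The 6 epidermal rows summed to 1110 to 1996 CPM in mutants, 1855 to 2789 in siblings and 2207 to 3080 in wildtypes. In the same order, the 7 mesenchyme and notochord rows summed to 283 to 441, 615 to 2066 and 1191 to 2336 CPM. The 3 muscle rows reached 2173 CPM in library sibling CA-3, where the endothelial sum was 1599 CPM. Markers of other cell types were thus present in the sorted samples. No marker of these lists that was found in the table had 0 counts over all libraries. In a bulk sample, fewer cells of a type and less RNA per cell cannot be told apart, and the part of these shifts in the values of the decay genes was not tested.

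The main question was which of these genes differed in mutants. Against wildtypes, 3 of the 8 genes rose in mutants and 0 fell: EIF4A3, CASC3 and SMG9. EIF4A3 and CASC3 belong to the exon junction complex itself, and SMG9 to the kinase complex that starts decay. The other 5 genes, UPF3B, UPF1, SMG1, SMG5 and SMG6, were not called. Of all genes tested, 28.7% were called in this comparison, 13.9% higher and 14.8% lower (edgeR quasi-likelihood test, Benjamini-Hochberg (BH) adjusted p under 0.05). The median log2 fold change was 0.08 over the 8 genes and -0.03 over all genes. Against siblings, EIF4A3 and CASC3 rose and 0 of the 8 fell, where 26.2% of all genes were called, 12.4% higher and 13.9% lower.

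**Figure D1:**
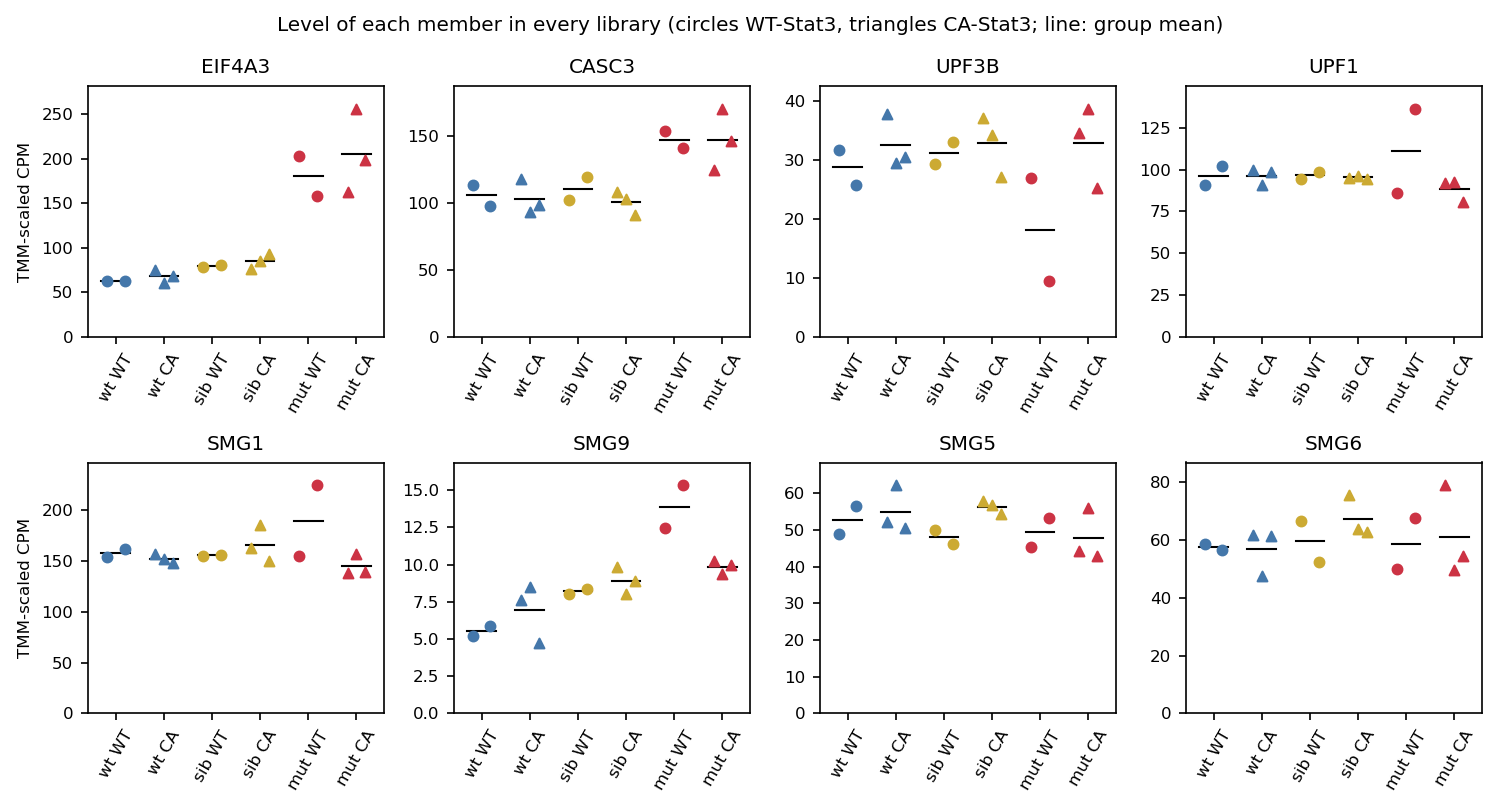
TMM-scaled counts (CPM, linear axis from 0) of the 8 genes in each of the 15 libraries, by genotype (wt wildtype, sib sibling, mut mutant) and Stat3 construct, with a line at each group mean. All 5 mutant libraries of EIF4A3 (158 to 256 CPM) and of CASC3 (124 to 170 CPM) lie above every other library, while UPF1 and SMG1 stand high in 1 mutant WT-Stat3 library, at 136 and 225 CPM.

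EIF4A3 (ENSDARG00000102978) encodes the RNA helicase that clamps the exon junction complex onto RNA. Its level was 63.3 and 62.8 CPM in the wildtype WT-Stat3 libraries and 75.1, 61 and 68.4 CPM with CA-Stat3. In siblings it was 78.6 and 80.4 CPM with WT-Stat3 and 76.8, 85 and 92.6 CPM with CA-Stat3. In mutants it reached 204 and 158 CPM with WT-Stat3 and 163, 256 and 199 CPM with CA-Stat3. The 3 genotypes did not overlap: every mutant library was above every sibling library, and every sibling library above every wildtype library. Mutant libraries all lay above all wildtype libraries for 9.27% of genes tested, and above all sibling libraries for 8.01%. Means were 66.1 ± 5.7 CPM in wildtypes, 82.7 ± 6.34 in siblings and 196 ± 39.4 in mutants (SD, n = 5 each). The mutants thus exceeded wildtypes by 1.56 ± 0.14 on the log2 scale (SE), a 2.94-fold difference (edgeR BH-adjusted p = 1.54e-06), and siblings by 1.23 ± 0.14, a 2.35-fold difference (edgeR BH-adjusted p = 1.84e-05). EIF4A3 had the 60th smallest p of all genes in the comparison with wildtypes, and 4.01% of genes had a larger fold change.

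The step from wildtype to sibling was smaller and was not called. Siblings exceeded wildtypes in EIF4A3 by 0.32 ± 0.14 (log2, SE; edgeR unadjusted p = 0.0329, BH-adjusted p = 0.51). A complete separation of siblings above wildtypes was seen in 0.982% of genes tested. In the sibling against wildtype comparison edgeR called 0% of genes, with 1712 of 18020 at an unadjusted p under 0.05, 12 called by DESeq2 and 0 by limma. Among the 8 genes, 0 were called by edgeR, DESeq2 or limma, and 2 had an unadjusted p under 0.05, namely EIF4A3 and SMG9. In order of group means, the neighbours that overlapped in EIF4A3 were the WT-Stat3 and CA-Stat3 groups of each genotype, so the order followed genotype first. Within each genotype the CA-Stat3 mean was the higher: 68.2 against 63 CPM in wildtypes, 84.8 against 79.5 in siblings and 206 against 181 in mutants.

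CASC3 (ENSDARG00000029911) encodes the junction complex protein, also known as Barentsz or MLN51, that joins the core outside the nucleus and promotes decay of marked transcripts in human cells. Wildtype libraries held 113 and 97.8 CPM with WT-Stat3 and 118, 93.2 and 98.5 CPM with CA-Stat3. Sibling libraries held 102 and 119 CPM with WT-Stat3 and 108, 102 and 90.7 CPM with CA-Stat3. Mutant libraries held 153 and 140 CPM with WT-Stat3 and 124, 170 and 146 CPM with CA-Stat3. The mutants did not overlap with the other genotypes, whose ranges overlapped. CASC3 rose above wildtypes by 0.49 ± 0.13 (log2, SE), from 104 ± 10.7 to 147 ± 16.8 CPM (SD, n = 5 each; edgeR BH-adjusted p = 0.00892). Above siblings, at 104 ± 10.2 CPM, the difference was 0.48 ± 0.13 (edgeR BH-adjusted p = 0.0118). Siblings and wildtypes differed by 0.01 ± 0.13 (edgeR BH-adjusted p = 0.984). The call against wildtypes was lost without library wildtype WT-2, at 0.40 (edgeR BH-adjusted p = 0.072, range over all alternatives 0.0017 to 0.072). The call against siblings was lost without library sibling WT-1, also at 0.40 (edgeR BH-adjusted p = 0.0713, range 0.00297 to 0.0713).

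SMG9 (ENSDARG00000076627) is a partner of the kinase SMG1, which phosphorylates UPF1 in the decay pathway. It had 33 to 80 counts per library. Its lowest value, 4.7 CPM in library wildtype CA-3, had a 95% exact Poisson interval of 3.24 to 6.6 CPM, which covers counting error only. Wildtype libraries held 5.17 and 5.89 CPM with WT-Stat3 and 7.62, 8.47 and 4.7 CPM with CA-Stat3. Sibling libraries held 8.02 and 8.38 CPM with WT-Stat3 and 9.83, 8.03 and 8.89 CPM with CA-Stat3, and mutant libraries 12.5 and 15.3 CPM with WT-Stat3 and 10.2, 9.4 and 9.95 CPM with CA-Stat3. Mutants lay above all wildtypes, but 1 sibling library reached into the mutant range. SMG9 rose by 0.91 ± 0.20 against wildtypes (log2, SE), from 6.37 ± 1.61 to 11.5 ± 2.45 CPM (SD, n = 5 each; edgeR BH-adjusted p = 0.00347). The 0.45 ± 0.20 between mutants and siblings missed the threshold (edgeR BH-adjusted p = 0.11). Siblings stood 0.46 ± 0.20 above wildtypes, also without a call (edgeR unadjusted p = 0.036, BH-adjusted p = 0.514).

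**Figure D2:**
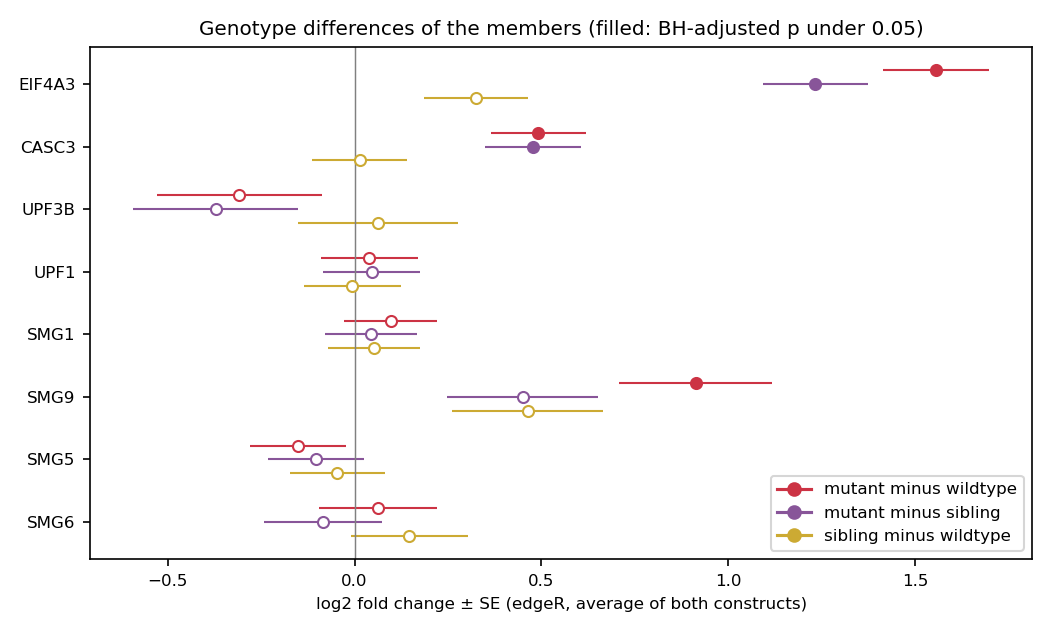
Log2 fold changes with standard errors (edgeR, average of both constructs) of the 8 genes for 3 genotype comparisons, with filled points for a BH-adjusted p under 0.05. EIF4A3 is called against wildtypes (1.56) and siblings (1.23), CASC3 likewise (0.49 and 0.48), and SMG9 against wildtypes alone (0.91).

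UPF3B, UPF2 and UPF1 form the bridge from the junction complex to decay, with UPF1 the helicase that carries it out. UPF1 (ENSDARG00000016302) varied little outside the mutants, from 90.6 to 102 CPM over the 10 wildtype and sibling libraries. Mutant libraries held 85.8 and 136 CPM with WT-Stat3 and 92, 92.7 and 80.7 CPM with CA-Stat3, so that 1 library was above all others, 2 were below all wildtype and sibling libraries and 2 were within their range. The mutant minus wildtype value was 0.04 ± 0.13 (log2, SE; edgeR BH-adjusted p = 0.848), and -0.14 without the high library, mutant WT-2 (edgeR BH-adjusted p = 0.45, range over alternatives 0.366 to 1).

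UPF3B (ENSDARG00000000489), the adaptor that touches the junction complex, was low in the library where UPF1 was high. Wildtype libraries ranged from 25.8 to 37.8 CPM and siblings from 27.1 to 37.1 CPM. Mutants held 26.9 and 9.41 CPM with WT-Stat3 and 34.6, 38.7 and 25.2 CPM with CA-Stat3, the 9.41 CPM being 27 counts in library mutant WT-2 (95% exact Poisson interval 6.2 to 13.7 CPM). The mutant minus wildtype value was -0.31 ± 0.22 (log2, SE; edgeR BH-adjusted p = 0.314). It was -0.04 without that library, and -0.84 and called without mutant WT-1, which leaves mutant WT-2 alone in its group (edgeR BH-adjusted p = 0.0077, range over alternatives 0.0077 to 0.914). Against siblings it was -0.37 ± 0.22, and likewise -0.89 and called without mutant WT-1 and -0.09 without mutant WT-2.

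SMG1 (ENSDARG00000054570), the kinase that phosphorylates UPF1, lay at 148 to 162 CPM in wildtypes and 150 to 186 CPM in siblings. Mutants held 155 and 225 CPM with WT-Stat3 and 139, 157 and 140 CPM with CA-Stat3, and the high value again came from library mutant WT-2. The mutant minus wildtype value was 0.10 ± 0.12 (log2, SE; edgeR BH-adjusted p = 0.593), and -0.04 without that library.

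SMG5 and SMG6 act after the kinase, SMG5 as an adaptor that recruits further decay enzymes and SMG6 as the endonuclease that cuts the transcript. SMG5 (ENSDARG00000041481) ranged from 49 to 62.2 CPM in wildtypes, 46.3 to 58 in siblings and 42.9 to 56 in mutants, and its mutant minus wildtype value was -0.15 ± 0.13 (log2, SE; edgeR BH-adjusted p = 0.402). SMG6 (ENSDARG00000100481) ranged from 47.5 to 61.8 CPM in wildtypes, 52.5 to 75.7 in siblings and 49.8 to 79 in mutants, with a mutant minus wildtype value of 0.06 ± 0.16 (log2, SE; edgeR BH-adjusted p = 0.795). The ranges of the 3 genotypes overlapped for both genes. The highest of the 6 group means was 1.18 times the lowest for SMG5 and for SMG6, against 3.26 times for EIF4A3 and 2.51 times for SMG9. For both genes, every pair of neighbours in the order of group means overlapped. Groups further apart in that order could separate: with CA-Stat3, all sibling libraries of SMG6 (62.8 to 75.7 CPM) lay above all wildtype libraries (47.5 to 61.8 CPM), as in 6.17% of genes tested. With CA-Stat3, all mutant libraries of UPF1 lay below all sibling libraries, as in 16.9% of genes. With WT-Stat3, both mutant libraries of UPF3B lay below both sibling libraries, as in 27.4% of genes.

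The order of group means followed genotype less clearly in the other genes. In CASC3 the 4 wildtype and sibling groups overlapped with their neighbours, from 100 to 110 CPM, and both mutant groups lay above them at 147 CPM. In SMG9 the order ran from wildtype WT-Stat3 (5.53 CPM) to mutant CA-Stat3 (9.86 CPM) with overlap at each step. The 2 libraries of mutant WT-Stat3 (mean 13.9 CPM, 44 and 55 counts) lay above them. The higher of the 2, at 15.3 CPM, was mutant WT-2. The share of all genes with such a gap is not given here, so no weight is put on it. In UPF1 the mutant CA-Stat3 group (88.5 CPM) lay below its neighbour in that order, sibling CA-Stat3. Its range, 80.7 to 92.7 CPM, still overlapped those of both wildtype groups and of mutant WT-Stat3. The other 5 groups overlapped with their neighbours, with means from 95.2 to 111 CPM. In UPF3B and SMG1 all neighbours overlapped, the highest mean being 1.81 and 1.31 times the lowest.

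Whether the form of Stat3 altered these genes was asked over all genotypes and as a dependence of the mutant change on the construct. In the CA-Stat3 minus WT-Stat3 comparison 0 of the 8 genes were called by edgeR, DESeq2 or limma, and 0 had an unadjusted p under 0.05. edgeR called 0% of all genes, with 2286 at an unadjusted p under 0.05, 94 called by DESeq2 and 1 by limma. The values of the 8 genes ran from -0.11 ± 0.11 in UPF1 to 0.36 ± 0.18 in UPF3B (log2, SE).

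Within a construct, EIF4A3 rose in mutants against wildtypes by 1.52 ± 0.22 with WT-Stat3 (edgeR BH-adjusted p = 0.000539) and by 1.59 ± 0.18 with CA-Stat3 (edgeR BH-adjusted p = 3.16e-05). CASC3 was at 0.48 ± 0.20 with WT-Stat3 (edgeR BH-adjusted p = 0.126) and rose by 0.51 ± 0.16 with CA-Stat3 (edgeR BH-adjusted p = 0.0439). SMG9 rose by 1.32 ± 0.32 with WT-Stat3 (edgeR BH-adjusted p = 0.0149) and was at 0.50 ± 0.25 with CA-Stat3 (edgeR BH-adjusted p = 0.201). The SMG9 call was lost without wildtype WT-1 (1.17), wildtype WT-2 (1.36) or mutant WT-2 (1.17), and with the libraries of that comparison alone (1.36). The CASC3 call with CA-Stat3 was lost in 9 of 15 fits that left out a library: wildtype WT-1 (0.48), WT-2 (0.48), CA-2 (0.44) or CA-3 (0.46), sibling WT-1 (0.48), WT-2 (0.48) or CA-2 (0.51), and mutant CA-2 (0.39) or CA-3 (0.51). In all, 2 of the 8 genes were called in each construct, both higher, beside 12.1% of genes called with WT-Stat3 (6.14% higher) and 14.7% with CA-Stat3 (7.26% higher). The difference between constructs was 0.07 ± 0.28 for EIF4A3, 0.03 ± 0.26 for CASC3 and -0.82 ± 0.41 for SMG9, and 0 of the 8 genes were called for it by edgeR, DESeq2 or limma, or had an unadjusted p under 0.05. edgeR called 0% of all genes for this dependence, with 929 at an unadjusted p under 0.05, 1 called by DESeq2 and 0 by limma.

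Against siblings, EIF4A3 rose by 1.19 ± 0.22 with WT-Stat3 (edgeR BH-adjusted p = 0.00448), the 1 gene called beside 7.48% of all genes (3.88% higher). With CA-Stat3 it rose by 1.28 ± 0.18 (edgeR BH-adjusted p = 0.000241) and CASC3 by 0.54 ± 0.16 (edgeR BH-adjusted p = 0.0317), beside 15.8% of all genes (7.49% higher). This CASC3 call was lost without sibling CA-2 (0.56), sibling CA-3 (0.46), mutant CA-2 (0.43) or mutant CA-3 (0.55), and the EIF4A3 call with WT-Stat3 with the libraries of that comparison alone (1.21, edgeR BH-adjusted p = 0.0504). By edgeR, 0 of the 8 genes were called for a dependence of the mutant change against siblings on the construct. An unadjusted p under 0.05 was found in 0 of them. The values ran from -0.61 ± 0.40 in SMG9 to 0.74 ± 0.44 in UPF3B, with EIF4A3 at 0.09 ± 0.28 (log2, SE). With so few libraries per group, this lack of calls does not show that the change was the same with both constructs. For this dependence edgeR, DESeq2 and limma called 0% of genes, with 992 at an unadjusted p under 0.05.

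**Figure D3:**
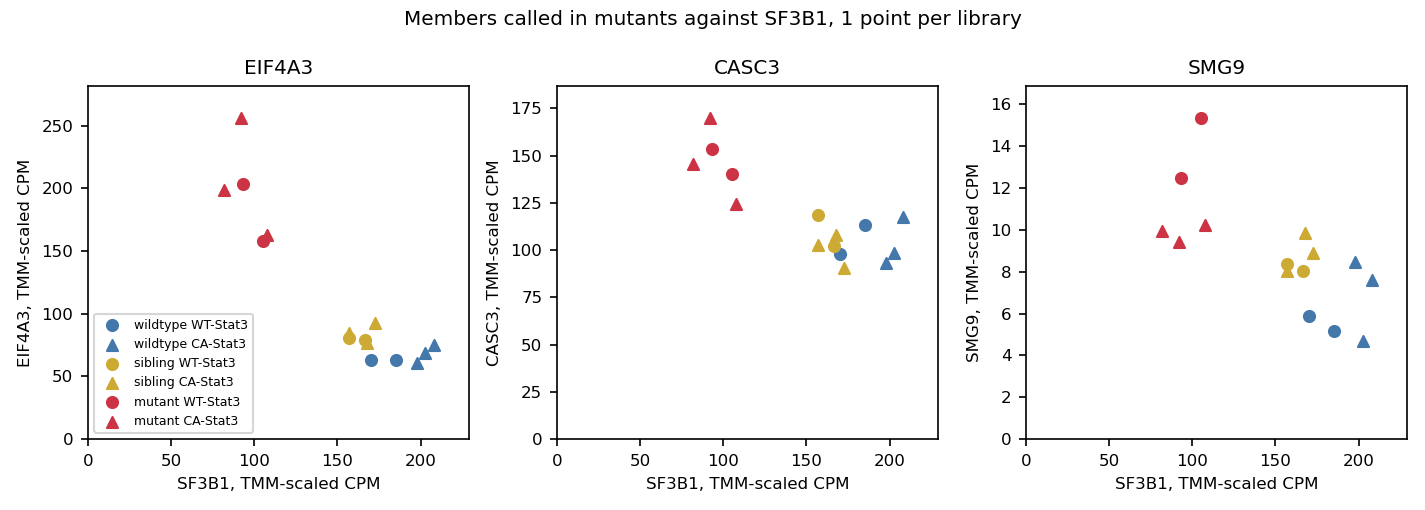
TMM-scaled CPM of EIF4A3, CASC3 and SMG9 (linear axes from 0) against that of SF3B1 in the same library, 1 point per library, with colour for genotype and shape for construct. Mutants (SF3B1 at 82 to 108 CPM) form a cluster above all other libraries for EIF4A3 and CASC3, while siblings lie between mutants and wildtypes for EIF4A3.

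Placed beside the mutated gene, EIF4A3 had its highest genotype mean where SF3B1 had its lowest. SF3B1 means were 193 ± 15.3 CPM in wildtypes, 164 ± 7 in siblings and 96.2 ± 10.6 in mutants (SD, n = 5 each). SF3B1 did not separate wildtypes from siblings when constructs were pooled, the lowest wildtype library being at 170 and the highest sibling library at 172 CPM. With WT-Stat3 the ranges were 170 to 185 CPM in wildtypes and 157 to 167 in siblings (n = 2 each). With CA-Stat3 they were 198 to 208 and 157 to 172 CPM (n = 3 each). The share of all genes that separate in this direction within a construct is not given here, so no weight is put on the gaps. SF3B1 in siblings differed from wildtypes by -0.21 ± 0.11, short of a call (log2, SE; edgeR BH-adjusted p = 0.567).

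The other genes of the pathway were counted from 4 lists. Of 15 listed symbols for other subunits and partners of the exon junction complex, 11 were found and tested, and in mutants against wildtypes 4 rose, 0 fell and 7 were not called, with a median log2 fold change of 0.27 beside -0.03 over all genes. For this and the next 3 lists, the share over all genes in the same comparison was 28.7% called, 13.9% higher and 14.8% lower. AQR, a helicase of the spliceosome that helps to deposit the complex, rose by 2.04 ± 0.13, from 65.5 ± 4.76 to 268 ± 41.5 CPM. SAP18, a peripheral subunit, rose by 1.18 ± 0.16, from 31.5 ± 1.53 to 74 ± 18.7 CPM. The splicing coactivator srrm1 rose by 0.85 ± 0.12, from 156 ± 10.8 to 277 ± 63.3 CPM (log2 ± SE, CPM ± SD, n = 5 each, edgeR BH-adjusted p of at most 0.000107 for the 3 genes).

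CWC22, which brings EIF4A3 to the spliceosome, rose by 0.31 ± 0.11 (log2, SE; edgeR BH-adjusted p = 0.0469), but was called in 1 of 15 fits that left out a library and in 5 of all 23 alternatives (0.25 to 0.33, adjusted p 0.0322 to 0.3). RBM8A, the core subunit also called Y14, was at 0.24 ± 0.17 (edgeR BH-adjusted p = 0.333). PYM1, which takes the complex apart, was at -0.88 ± 0.33 (edgeR BH-adjusted p = 0.0528, range 0.0126 to 0.222) and was called without library wildtype WT-1 (-1.13), mutant CA-1 (-1.01), sibling WT-2 (-0.92) or mutant WT-1 (-1.50). MAGOHB, the partner of RBM8A in the core, was at 0.47 ± 0.21 (edgeR BH-adjusted p = 0.11) and was called without library mutant WT-2, at 0.72 (edgeR BH-adjusted p = 0.0112, range 0.0112 to 0.956). Within the core, EIF4A3 and CASC3 were called while RBM8A and MAGOHB were not, and the difference between these genes was not tested.

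Of 17 listed symbols for other decay factors, 14 were found in 16 rows, of which 15 were tested. In mutants 5 rose, 1 fell and 9 were not called, beside the 28.7% called over all genes, with a median of 0.28. RUVBL1 and RUVBL2 are paired ATPases that assemble large complexes, the SMG1 kinase among them. RUVBL1 rose by 2.64 ± 0.17, from 43 ± 2.04 to 283 ± 98.3 CPM, and RUVBL2 by 1.12 ± 0.15, from 38.2 ± 4.42 to 83.9 ± 14.9 CPM (log2 ± SE, CPM ± SD, n = 5 each, edgeR BH-adjusted p = 3.48e-08 and 4.46e-05). GNL2, a nucleolar GTPase, rose by 0.80 ± 0.15 (edgeR BH-adjusted p = 0.000959).

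The termination factor GSPT1 (ENSDARG00000098627) rose by 0.50 ± 0.11 (log2, SE; edgeR BH-adjusted p = 0.00397), while a row that shares the symbol gspt1 was not called at 0.21 ± 0.24. SEC13, a coat and nuclear pore protein, rose by 0.62 ± 0.16 (edgeR BH-adjusted p = 0.007), and lost its call without library mutant WT-1, at 0.45 (edgeR BH-adjusted p = 0.0559, range 0.00174 to 0.0559). The gene that fell, chosen after its value was seen, was the poly(A)-binding protein gene pabpc1b, by 0.76 ± 0.20 (edgeR BH-adjusted p = 0.00953). The related gene pabpc1a went the other way, at 0.26. It was not called by edgeR (BH-adjusted p = 0.0857) but was called higher by DESeq2 (BH-adjusted p = 0.0492). SMG8, which binds SMG1 together with SMG9, was at 0.27 ± 0.23, and upf3a, a paralog of UPF3B, at -0.19 ± 0.33 (log2, SE), both without a call.

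**Figure D4:**
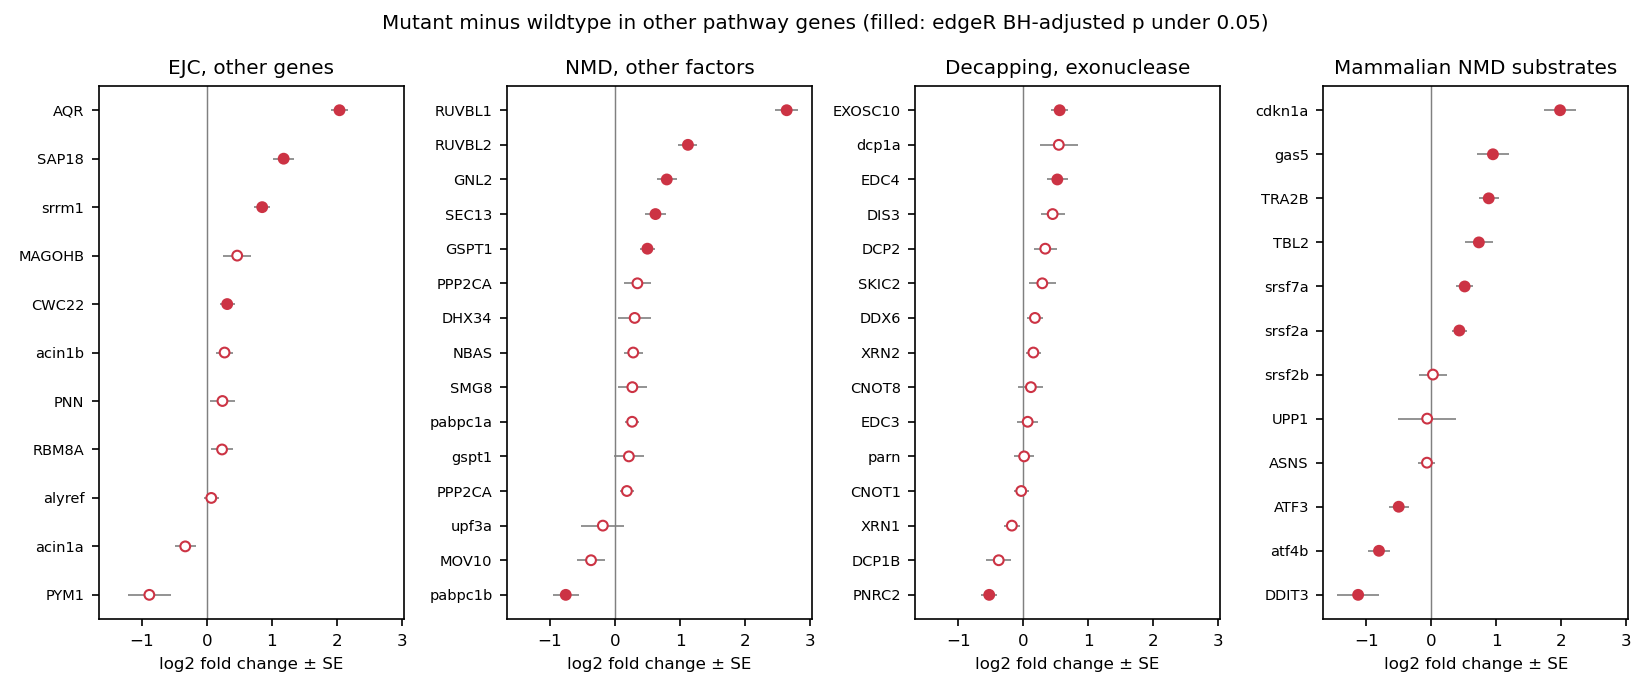
Mutant minus wildtype log2 fold changes with standard errors (edgeR) of the tested genes of 4 lists: other exon junction complex (EJC) genes, other nonsense-mediated decay (NMD) factors, decapping and exonuclease genes, and transcripts known as decay substrates in mammals. Filled points have a BH-adjusted p under 0.05, and RUVBL1 (2.64) and AQR (2.04) lie farthest to the right.

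Among genes for decapping and exonucleases, some of which degrade the transcript once decay has begun, 16 of 17 listed symbols were found and 15 tested. In mutants 2 rose, 1 fell and 12 were not called, beside the 28.7% called over all genes, with a median of 0.16. EXOSC10, a catalytic subunit of the nuclear exosome, rose by 0.56 ± 0.13 (log2, SE; edgeR BH-adjusted p = 0.00547). EDC4, a scaffold of decapping, rose by 0.52 ± 0.16 (edgeR BH-adjusted p = 0.0228, range over alternatives 0.00354 to 0.147). PNRC2, which links UPF1 to the decapping enzyme in human cells, fell by 0.52 ± 0.12 (log2, SE), its level being 377 ± 31 CPM in wildtypes and 263 ± 33 CPM in mutants (SD, n = 5; edgeR BH-adjusted p = 0.00468). The decapping enzyme DCP2 was at 0.34 ± 0.17 and the exonuclease XRN1 at -0.17 ± 0.12, without a call. EDC4 lost its call without wildtype WT-1 (0.40), wildtype CA-1 (0.48), wildtype CA-3 (0.49), mutant CA-2 (0.46) or mutant WT-2 (0.35).

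Transcripts that are known in mammals to be removed by nonsense-mediated decay were counted as a last list. Of 22 listed symbols 13 were found and 12 tested, and in mutants 6 rose, 3 fell and 3 were not called, with a median of 0.23, where 13.9% of all genes rose and 14.8% fell. Levels of total transcript do not separate decay from synthesis, and isoforms were not resolved. The cell cycle inhibitor cdkn1a rose by 1.98 ± 0.25, from 9.52 ± 2.06 to 38.3 ± 12.2 CPM (log2 ± SE, CPM ± SD, n = 5 each; edgeR BH-adjusted p = 3.85e-05). The splicing factor TRA2B rose by 0.88 ± 0.15 (edgeR BH-adjusted p = 0.00044), and srsf7a by 0.51 ± 0.13 (edgeR BH-adjusted p = 0.00691). The noncoding host transcript gas5 rose by 0.95 ± 0.24, from 8.76 ± 2.33 to 16.6 ± 2.22 CPM (edgeR BH-adjusted p = 0.00828). The stress transcription factor gene atf4b fell by 0.81 ± 0.17 (log2, SE), its level going from 221 ± 35.4 to 131 ± 33.5 CPM (edgeR BH-adjusted p = 0.00268).

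Genes of the same list thus moved in both directions, and the other 4 called genes, named after their values were seen, were srsf2a (0.43 ± 0.11) and TBL2 (0.73 ± 0.21), which rose, and DDIT3 (-1.13 ± 0.32) and ATF3 (-0.50 ± 0.16), which fell (log2, SE). Without library wildtype WT-2, which leaves wildtype WT-1 alone in its group, srsf7a (0.38), gas5 (0.81), srsf2a (0.35) and TBL2 (0.73) lost their calls. Fewer genes were called over the whole table in that fit as well. srsf2a was also not called with no filter on low counts (0.37). TBL2 was also not called without library wildtype WT-1 (0.65) or mutant WT-1 (0.35). DDIT3 (-0.77) and ATF3 (-0.36) were not called without library mutant WT-2, nor ATF3 without library wildtype WT-1 (-0.44) or library wildtype CA-2 (-0.42).

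Against siblings the 4 lists had 3 higher and 0 lower of 11 (exon junction complex partners), 5 higher and 1 lower of 15 (other decay factors), 1 higher and 1 lower of 15 (decapping and exonucleases) and 5 higher and 1 lower of 12 (mammalian substrates). Over all genes 26.2% were called against siblings, 12.4% higher and 13.9% lower. These counts share the mutant libraries with the comparison to wildtypes. AQR (1.98 ± 0.13), RUVBL1 (2.42 ± 0.17) and cdkn1a (2.18 ± 0.26) were again among the genes that rose (log2, SE). The 3 calls among junction complex partners became 5 without library mutant WT-2. The 2 decapping calls became 1 without that library or library sibling WT-1, and the 6 substrate calls became 3 without either sibling WT library. In siblings against wildtypes 0 genes of the 4 lists were called by edgeR.

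Last, the genes whose log2 CPM tracked a member most closely over the 15 libraries were listed, among 8741 others with a symbol and an average log2 CPM of at least 3. These are descriptions over libraries that share genotypes, depth and scaling. For EIF4A3 they were NMD3, an export adaptor of ribosomal subunits despite its name (Pearson coefficient 0.986), RUVBL1 (0.985) and the splicing factor USP39 (0.984). After subtraction of group means the coefficients were 0.757, 0.916 and 0.785. For CASC3 they were bpnt2 (0.962), RAB1B (0.958) and the splicing factor SRSF11 (0.944), with 0.886, 0.84 and 0.849 after that subtraction.

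For SMG9 the most alike were WNT1 (0.915) and a pair of genes known from red cells, the transferrin receptor tfr1a (0.89) and the spectrin SPTB (0.876), at 0.583, 0.686 and 0.738 after subtraction of group means. The latter pair rose in mutants against wildtypes by 2.07 ± 0.28 for tfr1a and 1.63 ± 0.22 for SPTB (log2, SE). The erythroid list, of which 7 of 10 tested rows rose and 0 fell, had a median of 1.70. It includes tfr1a, so the list and the likeness to tfr1a are not separate. The globin rows hbae3 and hbbe3 held the most counts of the list, 51418 and 37966 over all libraries, and weigh most in its sums. Among mutants the erythroid rows summed to 1116 and 1785 CPM with WT-Stat3, where SMG9 averaged 13.9 CPM. With CA-Stat3 they summed to 2792, 2749 and 1530 CPM, where SMG9 averaged 9.86 CPM. The part of erythroid cells in the SMG9 values was not tested. For UPF1 they were rmrp (0.897), USP34 (0.885) and SNORA73 (0.88), at 0.887, 0.864 and 0.877 after the subtraction, whose mutant minus wildtype values were 0.10 ± 0.18, -0.01 ± 0.17 and 0.36 ± 0.23 (log2, SE). The outlying UPF1 value, 136 CPM in library mutant WT-2, enters all of these coefficients, and its part in them was not tested. UPF1 and SMG1, both high in that library, correlated at 0.836 over the 15 libraries and at 0.185 over the 10 wildtype and sibling libraries.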

How the data were processed

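The deposited table held raw counts per Ensembl gene with 1 column per library and 0 columns lacking a sample. The tools named per the submitters' processing notes, without their roles, were STAR 2.4.2a, Trim Galore, featureCounts, Picard and DESeq2, with build GRCz10. How strand, duplicates and multi-mapped reads were handled is not stated there, so overlapping, antisense and paralogous genes (EIF4A3 has close relatives) are uncertain. No coordinates or sequences were used.

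Genes passing filterByExpr (minimum count 10, minimum total 15) were scaled by TMM and fitted in edgeR 4.0.16 (R 4.3.3) as 1 model with a coefficient for every group, leaving 9 residual degrees of freedom. Quasi-likelihood tests of 10 comparisons were BH-adjusted over all 18020 genes and called at 0.05. Each SE is the size of the log2 value divided by the root of its F statistic. A prior count of 2 was added for log2 CPM. The method was tested on simulated data, in which few genes were changed and counts were drawn from the spread fitted here. That run cannot show how scaling and calling behave when as many genes change as in these mutants. Libraries within a group correlated at 0.918 to 0.967 (Spearman), and 0 pairs were identical.

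Members and lists were chosen with earlier results of these data known, and 1 listed item is not reported here. All members were named, and from each list up to 5 called genes with the smallest p beside best-known genes. For EIF4A3, SMG9, CASC3 and UPF1 the 3 genes most like each were named. The alternatives were DESeq2 1.42.0, limma 3.58.1 (voom with quality weights), RLE scaling, filters absent or stricter (at least 1 CPM in 5 libraries and a total of 50), only the libraries compared, the replicate number as a block, and each library left out. An alternative without the most abundant row was chosen after seeing the data.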

Additional observations from a re-analysis of the deposited data

Results flagged for a closer look

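In the 5 mutant libraries, UPF1 reached 136 CPM and SMG1 225 CPM in library mutant WT-2, each far from the other 4 by Dixon's test (gap 0.783 and 0.78 of the range). Of 24 sets of 5 libraries tested, chance flags about 1 in 20. That library had the fewest counts of all, 3625121, and 39.5% of them in zgc:158463. A lower TMM factor gives a higher CPM for the same count. The TMM factor of this library was 0.793, against 0.905 to 1.09 in the other libraries. The mutant minus wildtype values without it were -0.14 for UPF1 and -0.04 for SMG1 (edgeR, log2), and neither gene was called with or without it. The part of depth or of the scaling factor in these values was not tested.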

How the results depend on the processing

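In the comparison with wildtypes, EIF4A3 (log2 1.42 to 1.65) and SMG9 (0.78 to 1) were called under all 23 alternatives run, and CASC3 (0.40 to 0.55) under 22. Of the genes called against siblings, EIF4A3 (1.11 to 1.33) held under 23 and CASC3 (0.40 to 0.52) under 22. No called member changed sign under any alternative. The number of members called, of 8, moved with settings, also for mutants against wildtypes over both constructs. There CASC3 lost its call without wildtype WT-2 (0.40), and UPF3B gained one, as lower, without mutant WT-1 (-0.84). Each of these fits left a group with a single library. Leaving out 1 library gave 1 to 3 called for mutants against siblings, 1 to 3 for mutants against wildtypes with WT-Stat3, 1 to 2 for the same with CA-Stat3, and 1 to 2 for mutants against siblings with WT-Stat3 or with CA-Stat3. With own libraries only, 1 was called against wildtypes with WT-Stat3, namely EIF4A3, while SMG9 lost its call (1.36, edgeR BH-adjusted p = 0.0745). Against siblings with WT-Stat3 0 were called, as EIF4A3 lost its call (1.21, edgeR BH-adjusted p = 0.0504). Against siblings with CA-Stat3 1 was called. CASC3 with CA-Stat3 lost its call with no filter against wildtypes (0.46) and siblings (0.51), leaving 1 called in each, and without the most abundant row against wildtypes (0.48), leaving 1. It was also not called against wildtypes with CA-Stat3 in 9 of the 15 fits that left out a library. The cause was not tested. Calls over the whole table moved as well. Against wildtypes over both constructs, 5169 genes were called in the main fit. Fits that left out a CA-Stat3 library called 4311 to 5349 there. Such counts for the other comparisons are not given here. The labels do not say that replicate numbers mark pairs. Of same-numbered libraries from different groups, 9 of 33 pairs correlated above 0.1 in their deviations (median 0.0829), against 5 of 60 different-numbered pairs (median -0.0281), and 10 of 15 libraries correlated best with their own number, a hint from the data and not the design. The highest coefficient was 0.336 among same-numbered and 0.392 among different-numbered pairs. In a group of 2 libraries the deviations from the mean mirror each other, so pairs between WT-Stat3 groups are not separate evidence. Deviations cancel within the CA-Stat3 groups as well, so same-numbered and different-numbered coefficients are linked and their medians are not independent. How often 10 of 15 would arise by chance was not tested. With a replicate block, 3 members were called against wildtypes and 2 against siblings. Over all genes that fit called 5467 of 18020 against wildtypes, and its share against siblings is not given here. Depth limits SMG9 and UPF3B most, at 33 and 27 counts in their thinnest libraries.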
